A study of Homo sapiens with 9 samples.

Results

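The genes described here are 10 markers of astrocyte differentiation, GFAP, S100B, AQP4, GLUL, AGT, CLU, APOE, SPARCL1, CRYAB and CST3. They were taken by symbol from a table of 19356 genes, and all 10 had a row and passed the filter on low values that left 16457 genes to test. The values come from sequencing of polyadenylated RNA of LN229, an established human glioblastoma cell line. Libraries of 3 groups were compared, with 3 libraries each: B3 and C4, both lines with the gene ARNT2 knocked out through CRISPR, and wild-type cells (WT). All were grown in DMEM with 5% FBS, and no other allele or agent is named. Whether B3 and C4 each descend from 1 cell, and whether the libraries of a group came from separate cultures, is not stated in the sources used here, so that p-values reflect no more than the spread among these libraries, which may be technical. The question was how loss of ARNT2 bears on proliferation and differentiation of such cells.

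Astrocytes are the glial cells that buffer water, ions and glutamate around neurons and that secrete lipid carriers and matrix proteins. During development they arise from radial glia under the influence of cytokines of the interleukin 6 family, which act through STAT3, of BMP signals and of nuclear factor I proteins, and glioblastoma cells can switch on parts of the same programme. The genes followed here stand for different sides of the astrocyte: its cytoskeleton and calcium binding (GFAP, S100B), water and glutamate handling (AQP4, GLUL), secreted proteins (AGT, APOE, CLU, CST3, SPARCL1) and protein folding (CRYAB). ARNT2 is a bHLH-PAS transcription factor, which binds DNA as a dimer with another protein of that family.

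The authors deposited log2 values that they had scaled across libraries, and a difference of 1 stands for a 2-fold change in the deposited value. The library medians lay between 10.62 and 10.65, and the read depth is unknown, so that counting error cannot be stated. Libraries of a group differed across genes by an SD of 0.05 to 0.07, against 0.18 to 0.23 between groups. ARNT2, the targeted gene, had log2 values of 11.91, 11.90 and 11.86 in B3 and 12.22, 12.15 and 12.05 in C4, against 13.56, 13.59 and 13.58 in WT, so that its RNA was lower in all 6 knockout libraries but not absent. Two-sided, the exact permutation p was 0.1 for either line against WT, the smallest value that 3 against 3 libraries allow. Markers of other cell types were not absent: 6 of 10 neuronal genes passed the filter, SYT1, SNAP25, MAP2 and TUBB3 with a mean log2 value of at least 10, while RBFOX3, STMN2, NEFL and DCX did not pass. Of the 6 immune genes with a row 4 passed, CD68 with a mean of at least 10, and PTPRC and CX3CR1 did not. All 8 genes of the glioma line list passed, as did the 8 oligodendrocyte, 7 fibroblast and 7 epithelial genes and 6 of 7 endothelial and pericyte genes with a row. The summed antilogs of the 10 astrocyte genes were 140595 to 143152 in B3 and 161023 to 165349 in C4, against 137550 to 141773 in WT. S100B made up the largest part of these sums in every library. Its antilogs were 84783 to 85563 in B3 and 87510 to 92013 in C4, against 71210 to 77154.5 in WT. GFAP, with antilogs of 97.4 to 126.5 over all libraries, hardly entered the sums. The oligodendrocyte sums were 291260 to 293705 in B3 and 352802 to 357291 in C4, against 321534 to 325891 in WT. The glioma line sums were 539540 to 565703 in B3 and 479353 to 490390 in C4, against 506681 to 510634 in WT. The first 2 lists had their highest sums in C4, and the glioma line list had its highest in B3. SOX10 made up 46.2% to 52.2% of the oligodendrocyte sums and VIM 48.7% to 54.5% of the glioma line sums. The neuronal sums were 43784 to 45236 in B3 and 44659 to 45813 in C4, against 40574 to 42157 in WT. The immune sums were 2066 to 2143 in B3 and 1752 to 1773 in C4, against 1753 to 1803 in WT, with CD68 making up at least 93.7% of each. The epithelial sums were 17752 to 18619 in B3 and 22651 to 23473 in C4, against 22220 to 24701 in WT. Neuronal sums were thus higher in both lines than in WT, immune sums higher in B3 and epithelial sums lower in B3. MAP2 made up 37.8% to 46.6% of the neuronal sums and KRT18 69.3% to 74.3% of the epithelial sums. Of the 6 neuronal genes tested, limma called 1 higher and 2 lower in B3, and 2 higher and 2 lower in C4 (adjusted p under 0.05). Over all tested genes, 23.2% were called higher and 24.6% lower in B3, and 28.2% and 28% in C4. The fibroblast sums were 9866 to 10092 in B3 and 6634 to 7072 in C4, against 10177 to 10441 in WT, with LUM making up 44.2% to 58.3% of each. The endothelial and pericyte sums were 122848 to 129065 in B3 and 114621 to 121676 in C4, against 178758 to 184245 in WT, but CSPG4 alone made up 95.2% to 97.5% of each of these, so that they describe that gene and not the list. The part of these markers in the astrocyte results was not tested. All libraries came from LN229 cells. In RNA from whole cultures, fewer cells that express a gene and less RNA per cell cannot be told apart.

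The markers differed widely in level. Per kilobase of merged exon, S100B had a mean log2 value of 15.80 over the 9 libraries, above 99.8% of the 17733 genes with a length. CST3 followed at 13.10 and APOE at 12.75, and the libraries of these neighbours in the order overlapped. GLUL reached 10.76. AGT, CRYAB and CLU came next at 7.06, 6.85 and 6.54 per kilobase, below the median of 8.58 for all genes with a length, and each overlapped its neighbour in the order. GFAP, the filament by which astrocytes are most often recognised, was at 3.19 per kilobase, above 18.5% of genes, and SPARCL1 and AQP4 were lower still, at 1.84 and 1.37. The length is that of the merged exons of all isoforms, 12110 bases for GFAP and 1448 for S100B, which lowers the value of a gene with long alternative exons.

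**Figure D1:**
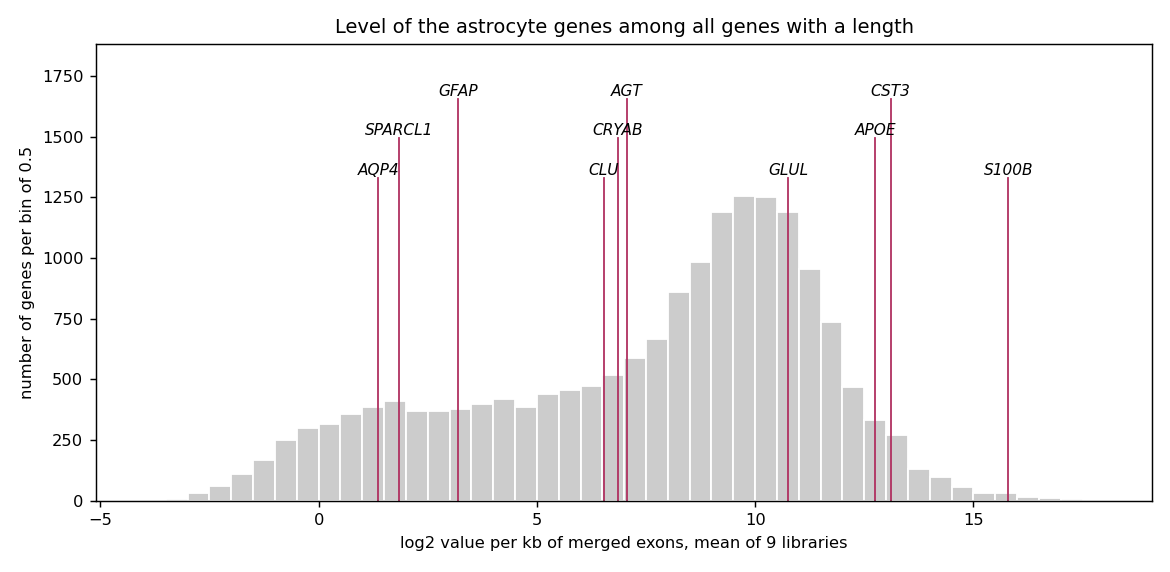
Histogram of the mean log2 value per kilobase of merged exon over the 9 libraries for 17733 genes (x axis, bins of 0.5; y axis, number of genes), with a line for each of the 10 astrocyte genes. S100B stands at 15.80 in the upper tail, while GFAP, SPARCL1 and AQP4 lie at 3.19, 1.84 and 1.37 in the lower part.

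In C4 most of these genes were higher than in WT, and in B3 more of them were lower than higher. Each change is a log2 difference ± SE from 1 limma fit, with p-values adjusted over all 16457 genes and called under 0.05. In B3 against WT, 2 of the 10 genes were called higher and 5 lower, where 23.2% of all tested genes were called higher and 24.6% lower (47.9% called in all). The libraries of B3 and WT did not overlap for 7 of the 10, against 53.8% of all tested genes. The median change of the 10 was -0.06, against 0.00012 over all tested genes. In C4 against WT, 8 of the 10 were called higher and none lower (0), where 28.2% of all tested genes were called higher and 28% lower (56.2% in all), and the median was 0.21, against 0.0012 over all tested genes. C4 and WT did not overlap for 8 of the 10, against 60.7% of all. The share of tested genes called depended on level. At log2 values of 13 and over, where S100B, GLUL, APOE and CST3 lay, it was 64.0% in B3 and 70.8% in C4. At values of 8 to 10, where AGT, CLU and CRYAB lay, it was 45.2% and 50.8%. Both comparisons share the WT libraries. After scaling all libraries to 1 common total, the members called lower in B3 numbered 3 and those called higher 3, and 64.2% of all B3 calls were higher, against 48.5% with the deposited scaling. For C4 that scaling put 61.5% of all calls on the higher side, and scaling to the same median 60.8%, against 50.2%. The 8 members called higher in C4 were 8 under both scalings.

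**Figure D2:**
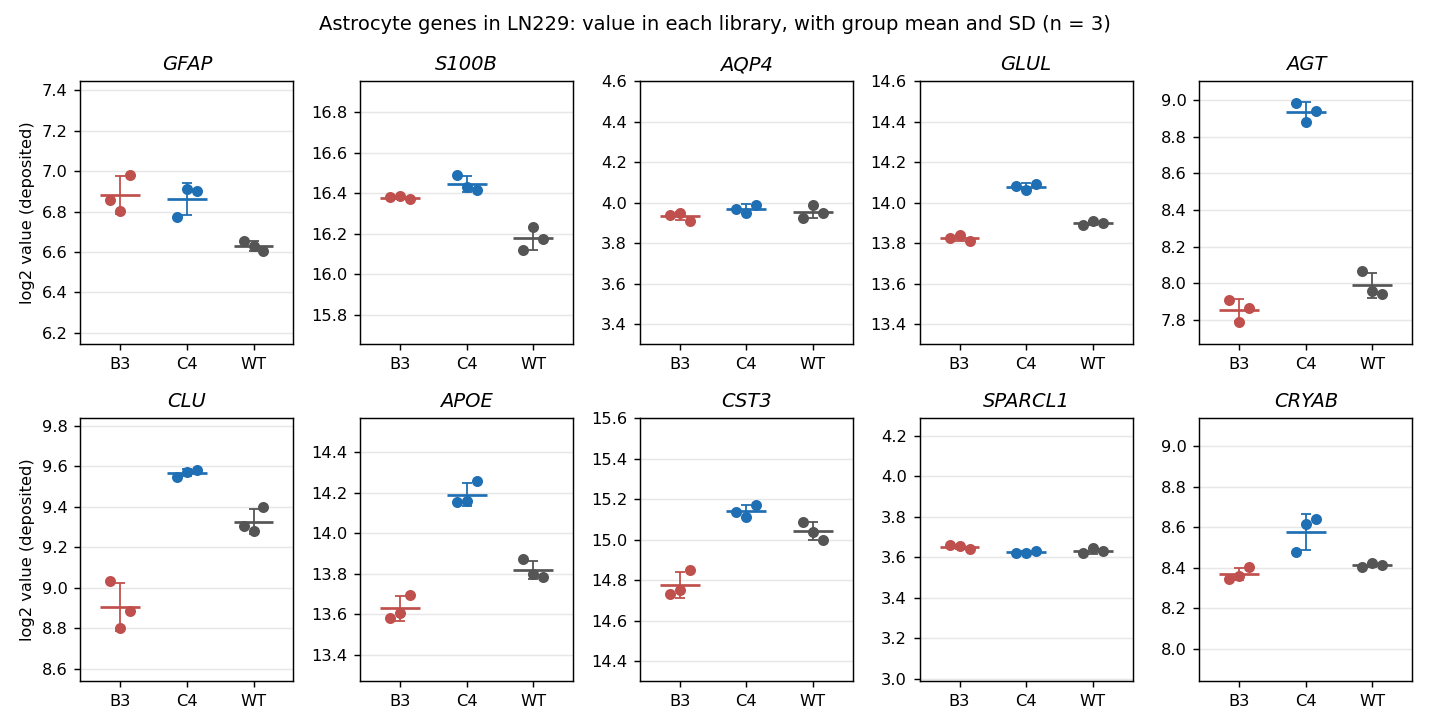
Deposited log2 value (y axis, a separate range for each gene) of the 10 astrocyte genes in each library of B3, C4 and WT (x axis). Points are libraries, horizontal lines are group means and bars are the SD (n = 3). AGT in C4 (8.93) stands far above B3 and WT, GFAP and S100B are higher in B3 and in C4 than in WT, and AQP4 and SPARCL1 hardly vary.

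Promoter sequences are shown for AGT, which changed most, and for GLUL and APOE, which were lowest in B3 and highest in C4 as AGT was. CST3 had the same order of groups and a window, which is not printed. RefSeq promoters on GRCh38.p14 were at hand for 6 of the 10 genes (AQP4, GLUL, AGT, APOE, SPARCL1 and CST3), as windows of 250 bases before and 50 after the RefSeq start. Each was searched on both strands for the E-box CACGTG and for the shorter ACGTG contained in it. ACGTG is the core bound by many dimers with ARNT or ARNT2, and every E-box of this form also counts for it. The other motifs were GCGTG (the core of the dioxin receptor site), TTCNNNGAA (a STAT site) and TTGGCA (a nuclear factor I site). The 250 bases before the start are printed, 5′ to 3′ on the gene's strand, with matches in capitals. AGT is chr1:230714123-230714372 (minus), GLUL chr1:182391791-182392040 (minus) and APOE chr19:44905546-44905795 (plus).
AGT: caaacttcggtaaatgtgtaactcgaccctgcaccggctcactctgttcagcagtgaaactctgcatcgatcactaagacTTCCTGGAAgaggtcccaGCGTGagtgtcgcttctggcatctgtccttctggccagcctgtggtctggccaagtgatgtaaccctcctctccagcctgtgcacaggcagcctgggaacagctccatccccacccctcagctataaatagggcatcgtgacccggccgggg
GLUL: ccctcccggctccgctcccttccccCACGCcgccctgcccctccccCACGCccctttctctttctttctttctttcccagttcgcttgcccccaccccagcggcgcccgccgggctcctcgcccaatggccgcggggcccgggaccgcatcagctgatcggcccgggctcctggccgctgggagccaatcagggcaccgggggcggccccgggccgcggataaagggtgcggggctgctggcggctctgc
APOE: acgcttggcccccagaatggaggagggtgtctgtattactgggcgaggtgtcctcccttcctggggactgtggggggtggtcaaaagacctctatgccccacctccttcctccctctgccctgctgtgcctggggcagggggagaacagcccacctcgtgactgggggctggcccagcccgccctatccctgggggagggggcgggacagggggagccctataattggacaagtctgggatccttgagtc
In AGT the capitals are TTCCTGGAA, which begins at position -170 from the RefSeq start, and GCGTG at -152. In GLUL they are GCGTG read on the opposite strand (CACGC), at positions -225 and -204, and another GCGTG begins at base 27 after it, outside the stretch shown. SPARCL1 has GCGTG on the opposite strand at position -37, and AQP4, APOE and CST3 hold none of the motifs. Of all 27305 windows of this length, 7.43% hold CACGTG, 21.6% ACGTG, 36.3% GCGTG, 7.88% TTCNNNGAA and 12.7% TTGGCA. In the 11671 windows of tested genes the shares were 9.67%, 25.9%, 49.0%, 6.59% and 9.43% in the same order. Among the 6 members, all of them tested, the counts were 0, 0, 3, 1 and 0, so that GCGTG stood in about the share found in tested genes. The GENCODE genes reach past the RefSeq starts of AGT, GLUL and APOE, so that parts of the AGT and APOE windows and the whole GLUL window lie inside the annotated genes. A match describes these letters only.

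GFAP and S100B, the markers of the astrocyte cytoskeleton and cytoplasm, were higher in both knockout lines than in WT. They were the 2 of 10 members called with the same sign in both comparisons, which share the WT libraries, and 24.1% of all tested genes were. GFAP, on chromosome 17 (44903161 to 44916937, minus strand, GRCh38), encodes the class III intermediate filament of mature astrocytes. Its log2 values were 6.86, 6.80 and 6.98 in B3 and 6.77, 6.91 and 6.90 in C4, against 6.65, 6.63 and 6.61 in WT. The B3 and C4 libraries lay entirely above those of WT and overlapped each other. GFAP rose by 0.25 ± 0.05 in B3 (adjusted p = 0.000137) and by 0.23 ± 0.05 in C4 (adjusted p = 0.000244). Exons of CCDC103, which lies on the opposite strand, overlap those of GFAP, and the strand of the counting is not given in the sources used here, so that reads of the 2 genes cannot be told apart there. CCDC103 itself was at 0.12 in B3 (adjusted p = 0.0613) and rose by 0.21 in C4 (adjusted p = 0.00165).

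S100B (chromosome 21, 46598962 to 46605208, minus strand) encodes a calcium-binding protein that astrocytes keep in the cytoplasm and also release. It had log2 values of 16.38, 16.38 and 16.37 in B3 and 16.49, 16.43 and 16.42 in C4, against 16.12, 16.24 and 16.18 in WT. All 6 knockout libraries were above the highest WT library. S100B rose by 0.20 ± 0.03 in B3 (adjusted p = 4.02e-06) and by 0.27 ± 0.03 in C4 (adjusted p = 3.43e-08), which put it at 115% and 121% of the WT level. The C4 libraries also lay above the B3 libraries, by 0.07 ± 0.03, a difference that did not pass the test (adjusted p = 0.0531) and that passed it under 6 of 18 alternative settings. No gene overlaps S100B in the annotation.

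AQP4 and GLUL, the genes of water and glutamate handling, differed in level and in what they did. AQP4 (chromosome 18, 26852038 to 26865818, minus strand) encodes the water channel of astrocyte endfeet. Its log2 values were 3.94, 3.95 and 3.91 in B3 and 3.97, 3.95 and 3.99 in C4, against 3.93, 3.99 and 3.95 in WT, and all groups overlapped. Neither line passed the test, at -0.02 ± 0.02 in B3 (95% interval -0.07 to 0.03) and 0.02 ± 0.02 in C4 (-0.03 to 0.06). With a mean antilog of 15.5, AQP4 lay little above the filter of 10. At log2 values of 3 to 4.5 the median absolute change of all tested genes was 0.0208 in B3 and 0.0228 in C4, and 10.9% and 14.1% of them were called, and if the values are regularized-log values, which no source states, changes at this level are understated.

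GLUL encodes glutamine synthetase, which turns glutamate and ammonia into glutamine (chromosome 1, 182381704 to 182392206, minus strand). It had log2 values of 13.82, 13.84 and 13.81 in B3 and 14.08, 14.06 and 14.09 in C4, against 13.89, 13.91 and 13.90 in WT. The 3 groups were fully apart, with C4 highest and B3 lowest. GLUL fell by 0.07 ± 0.02 in B3 (adjusted p = 0.00651), a call that ended with every library at the same total (adjusted p = 0.107, range 0.00471 to 0.107 over the settings). In C4 it rose by 0.18 ± 0.02 (adjusted p = 1.56e-07), to 113% of the WT level.

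The genes of secreted proteins included the largest change in either line, AGT in C4 and CLU in B3. AGT encodes angiotensinogen, the precursor of the angiotensins, which astrocytes make in the brain (chromosome 1, 230702523 to 230714297, minus strand). Its log2 values were 7.91, 7.79 and 7.86 in B3 and 8.98, 8.88 and 8.94 in C4, against 8.07, 7.96 and 7.94 in WT. Its promoter is among the 3 printed. Every C4 library was above every other library by a wide margin, and B3 lay just below WT. AGT rose by 0.94 ± 0.05 in C4 (adjusted p = 1.23e-13), to 192% of the WT level, and 99.4% of all tested genes changed less in that comparison. In B3 it changed by -0.14 ± 0.05 (adjusted p = 0.0273). That B3 call ended without B3 replicate 2 (adjusted p = 0.135), without WT replicate 1 (adjusted p = 0.144) and after scaling each library to 1 total (adjusted p = 0.0897), in a range of 0.0161 to 0.144.

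APOE, the chief lipid carrier that astrocytes secrete, and CLU, which encodes clusterin, an extracellular chaperone and lipoprotein component, each fell in B3 and rose in C4. APOE (chromosome 19, 44905754 to 44909393, plus strand) had log2 values of 13.58, 13.61 and 13.70 in B3 and 14.15, 14.16 and 14.26 in C4, against 13.87, 13.80 and 13.79 in WT. No library of 1 group reached into another. APOE fell by 0.19 ± 0.03 in B3 (adjusted p = 2.08e-05) and rose by 0.37 ± 0.03 in C4 (adjusted p = 4.73e-10), levels of 87.6% and 129% of WT. Its neighbour APOC1, another apolipoprotein gene, fell by 0.13 in B3 with overlapping libraries (adjusted p = 0.0489) and was at -0.05 in C4 (adjusted p = 0.444). CLU (chromosome 8, 27596917 to 27615031, minus strand) had log2 values of 9.03, 8.80 and 8.88 in B3 and 9.55, 9.57 and 9.58 in C4, against 9.30, 9.28 and 9.40 in WT. Its groups were apart as well, although B3 replicate 1 stood nearer to WT than the other two. CLU fell by 0.42 ± 0.05 in B3 (adjusted p = 6.55e-07), to 74.7% of the WT level, and rose by 0.24 ± 0.05 in C4 (adjusted p = 0.000498).

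The decrease of CLU in B3 went with lower values of many genes around it. Of 21 tested genes that start within 2 Mb of CLU, 14 were called lower and 3 higher in B3, with a median of -0.17, where 24.6% of all tested genes were called lower. None of the 21 changed as far as CLU. In C4 the same neighbours had a median of 0.04, with 7 called higher and 2 lower, and 3 of them changed further than CLU. Around the other 9 members the medians lay between -0.03 and 0.04 in B3 and between -0.06 and 0.06 in C4. For AGT in C4 the median of 24 neighbours was 0.06, and 0 of them changed as far as AGT. The part of the region in the CLU result was not tested.

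**Figure D3:**
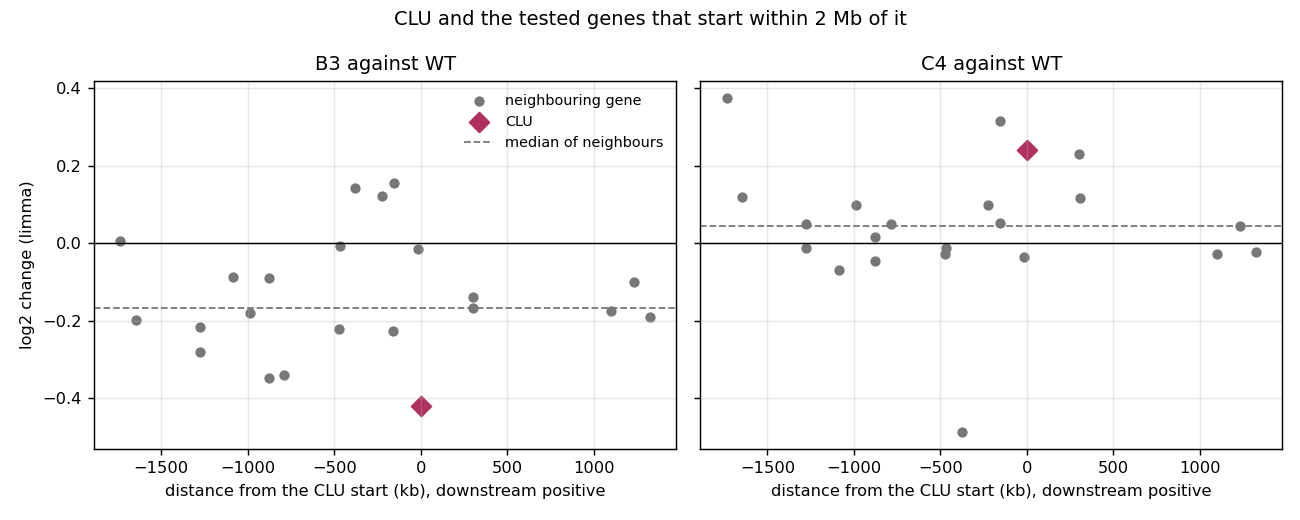
Log2 change of CLU (diamond) and of the 21 tested genes that start within 2 Mb of it (points) against their distance from the CLU start in kb, in B3 against WT (left) and C4 against WT (right). The dashed line is the median of the neighbours, -0.17 in B3 and 0.04 in C4, and CLU at -0.42 is the lowest point in B3.

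CST3 and SPARCL1 complete the secreted group. CST3 encodes cystatin C, an inhibitor of cysteine proteases found throughout cerebrospinal fluid (chromosome 20, 23626706 to 23638473, minus strand). It had log2 values of 14.73, 14.75 and 14.85 in B3 and 15.13, 15.11 and 15.17 in C4, against 15.09, 15.04 and 14.998 in WT. The B3 libraries were well below the rest, and the C4 libraries were just above those of WT. CST3 fell by 0.26 ± 0.03 in B3 (adjusted p = 9.5e-08), to 83.2% of the WT level. In C4 it rose by 0.10 ± 0.03 (adjusted p = 0.00658), a call that ended without WT replicate 3 (adjusted p = 0.0584, range 0.000689 to 0.0584). SPARCL1, which encodes hevin, a matrix protein with which astrocytes promote synapse formation (chromosome 4, 87473335 to 87531061, minus strand), had log2 values of 3.66, 3.66 and 3.64 in B3 and 3.62, 3.62 and 3.63 in C4, against 3.62, 3.64 and 3.63 in WT. At a mean antilog of 12.4 it too lay little above the filter, and it passed no test, with 0.02 ± 0.02 in B3 and -0.01 ± 0.02 in C4. It was called in B3 only with every library at the same total (0.05, adjusted p = 0.0217, range 0.0217 to 0.617).

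CRYAB encodes alpha-B crystallin, a small heat shock protein that binds unfolding proteins and accumulates in reactive and tumour astrocytes (chromosome 11, 111908565 to 111923722, minus strand). Its log2 values were 8.34, 8.36 and 8.40 in B3 and 8.48, 8.62 and 8.64 in C4, against 8.40, 8.43 and 8.42 in WT. C4 lay above WT, and B3 just touched it. CRYAB rose by 0.16 ± 0.05 in C4 (adjusted p = 0.00613) and did not pass the test in B3, at -0.05 ± 0.05 (95% interval -0.15 to 0.05, adjusted p = 0.466). HSPB2, which lies head to head with CRYAB and shares exon bases with it, was not analysed here.

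**Figure D4:**
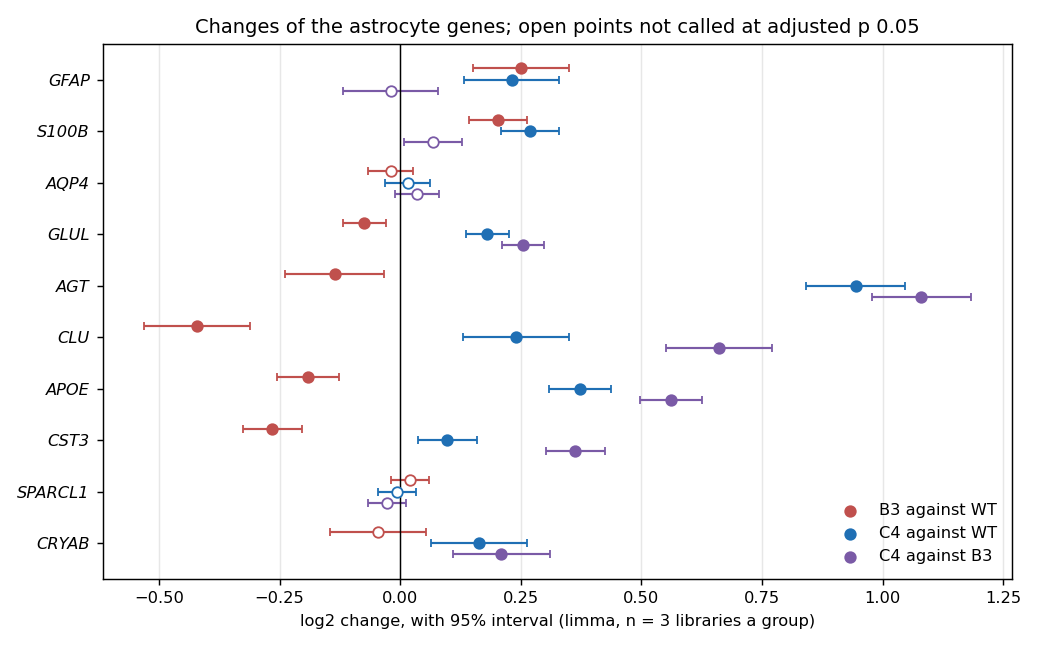
Log2 change with its 95% interval (x axis) of the 10 astrocyte genes (rows) in B3 against WT, C4 against WT and C4 against B3. Filled points passed limma's adjusted p of 0.05 and open points did not. GFAP and S100B lie to the right of 0 in both lines, whereas GLUL, AGT, CLU, APOE and CST3 lie left of 0 in B3 and right of 0 in C4.

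The lines were then set against each other, which also tests whether their changes against WT differ, because the WT values cancel. C4 was called higher than B3 for 6 of the 10 genes and lower for none (0), where 28.6% of all tested genes were called higher and 27.8% lower (56.4% in all). The lines did not overlap for 8 of the 10, S100B and SPARCL1 included, against 62.3% of all. AGT was higher in C4 by 1.08 ± 0.05 (adjusted p = 9.21e-15), a 2.11-fold higher level. CLU was higher by 0.66 ± 0.05 (adjusted p = 2.27e-10) and APOE by 0.56 ± 0.03 (adjusted p = 2.6e-13). CST3, GLUL and CRYAB were higher in C4 by 0.36 ± 0.03, 0.25 ± 0.02 and 0.21 ± 0.05, with adjusted p of 2.51e-10, 5.03e-10 and 0.00076. GFAP gave -0.02 ± 0.05 (95% interval -0.12 to 0.08) and AQP4 and SPARCL1 gave 0.03 ± 0.02 and -0.03 ± 0.02, none past the test.

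Other astrocyte genes were followed in a list of 22, of which 21 had a row and 18 were tested. In B3, 2 of the 18 were called higher and 11 lower, with a median of -0.16. In C4, 5 were called higher and 4 lower, with a median of 0.01. Those called higher in C4 numbered 3 without C4 replicate 2 or WT replicate 1, and in B3 they numbered 1 without B3 replicate 3, WT replicate 2 or WT replicate 3 and with no intensity trend. For these and the following lists, every rise or fall named passed limma's adjusted p of 0.05 over all tested genes. The list counts are to be read beside the shares of all tested genes. These were 23.2% called higher and 24.6% lower in B3, and 28.2% and 28% in C4. KCNJ10, an inwardly rectifying potassium channel of glia, rose by 0.10 ± 0.03 in B3 and by 1.09 ± 0.03 in C4, to a log2 value of 13.24 in C4, against 12.15 in WT. Its B3 call ended without B3 replicate 3, WT replicate 2 or WT replicate 3 (adjusted p = 0.0647, 0.144 and 0.0707) and with no intensity trend (adjusted p = 0.0546). APOD, a glial apolipoprotein, fell by 0.70 ± 0.03 in B3 and fell by 0.75 ± 0.03 in C4. The glycolytic enzyme gene ALDOC fell by 0.47 ± 0.03 in B3 and rose by 0.43 ± 0.03 in C4. FABP7, the brain lipid-binding protein of radial glia, fell by 0.40 ± 0.03 in B3 and was at 0.01 ± 0.03 in C4. ALDH1L1, GJB6 and MLC1 fell under the filter.

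Regulators of astrocyte formation were called in both directions. Of 33 listed, 29 were tested. In B3, 7 were called higher and 13 lower, with a median of -0.06, and in C4, 12 higher and 10 lower, with a median of 0.02. With libraries scaled to a common total or to a common median, those called lower in B3 numbered 8 and those called higher stayed at 7. LIF, a cytokine that drives astrocyte formation through STAT3, fell by 0.53 ± 0.02 in B3 and fell by 1.05 ± 0.02 in C4. ID4 and ID1, inhibitors of helix-loop-helix factors that respond to BMP signals, parted: ID4 rose by 0.31 ± 0.02 in B3 and 0.74 ± 0.02 in C4, while ID1 rose by 0.16 ± 0.03 in B3 and fell by 0.51 ± 0.03 in C4. ZBTB20, a zinc finger factor of astrocyte development, fell by 0.21 ± 0.06 in B3, a call that ended under robust moderation (adjusted p = 0.0960), and rose by 0.45 ± 0.06 in C4.

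Genes of reactive astrocytes, a list known from mouse, held the largest single decreases among the lists of other genes. Of 25 tested, 5 were called higher and 16 lower in B3 (median -0.17), and 7 higher and 12 lower in C4 (median -0.01, but 0.02 with libraries at a common total or median). The highest change in the list was 0.40 in B3 and 0.78 in C4, the latter for S100A10. LCN2, a secreted lipocalin, fell by 2.12 ± 0.06 in B3 and fell by 3.02 ± 0.06 in C4. The complement gene C3 fell by 1.31 ± 0.03 in B3 and fell by 1.27 ± 0.03 in C4. SERPING1, a complement inhibitor, fell by 1.12 ± 0.05 in B3 and fell by 0.52 ± 0.05 in C4, and the copper protein gene CP fell by 0.93 ± 0.05 in B3 and fell by 1.08 ± 0.05 in C4.

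The relatives and partners of single members were called in both directions in most lists. Among filament genes, 1 of 6 tested was higher and 1 lower in B3, and 1 higher and 2 lower in C4. Those higher in B3 numbered 2 without WT replicate 1, those lower in B3 numbered 0 at a common total, and those lower in C4 numbered 1 without C4 replicate 2 or 3. SYNM, which encodes the filament protein synemin, fell by 0.10 ± 0.03 in B3 (adjusted p = 0.0771 with libraries at a common total) and rose by 0.70 ± 0.03 in C4. VIM rose by 0.19 ± 0.04 in B3 and fell by 0.12 ± 0.04 in C4, where the call ended without C4 replicate 2 or 3 (adjusted p = 0.0502 and 0.0735). The linker gene PLEC was at -0.05 ± 0.04 in B3 and fell by 0.31 ± 0.04 in C4. In the S100 family, 6 of 10 were higher and 1 lower in B3, and 4 higher and 1 lower in C4, and those lower in B3 numbered 2 without WT replicate 1 or C4 replicate 1. S100A10, the annexin A2 partner, rose by 0.33 ± 0.02 in B3 and by 0.78 ± 0.02 in C4. Of the aquaporins and anchors of AQP4, 2 of 9 were higher and 3 lower in B3, and 7 higher and none lower (0) in C4. The dystrophin gene DMD, part of the complex that anchors AQP4, rose by 0.91 ± 0.04 in B3 and by 0.24 ± 0.04 in C4, and the aquaporin gene AQP3 fell by 0.29 ± 0.04 in B3 and rose by 0.19 ± 0.04 in C4.

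Genes that share the glutamate and glutamine pathway with GLUL were mostly called lower in both lines. Of 12 glutamate cycle and transporter genes, 0 were called higher and 9 lower in B3, and 1 higher and 8 lower in C4. Among all tested genes, 24.6% were called lower in B3 and 28% in C4. SLC1A5, a glutamine transporter, fell by 0.09 ± 0.02 in B3 and fell by 0.66 ± 0.02 in C4. Another, SLC38A1, fell by 0.60 ± 0.02 in B3 and fell by 0.50 ± 0.02 in C4, and the glutamate transporter gene SLC1A1 fell by 0.41 ± 0.03 in B3 and fell by 0.57 ± 0.03 in C4. SLC1A3, another glutamate transporter gene of this list, had the same order of groups as GLUL. Its log2 values were at most 12.05 in B3, 12.26 to 12.34 in WT and 12.58 to 12.61 in C4. The highest change of the list in C4 was 0.31, that of SLC1A3. Of 8 renin-angiotensin genes, 0 were higher and 3 lower in B3, and 3 higher and 4 lower in C4. ACE, the enzyme that forms angiotensin II, fell by 0.33 ± 0.05 in B3 and fell by 0.17 ± 0.05 in C4, and the aminopeptidase gene ENPEP fell by 0.19 ± 0.04 in B3 and fell by 0.30 ± 0.04 in C4. CTSD, a lysosomal protease, was at 0.02 ± 0.03 in B3 and rose by 0.45 ± 0.03 in C4.

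Among the receptors, transporters and relatives of APOE and CLU, 2 of 14 were higher and 6 lower in B3, and 7 higher and 2 lower in C4, with 4 higher and 5 lower in B3 when libraries had a common total. Those higher in B3 numbered 1 without B3 replicate 1, B3 replicate 2, WT replicate 2 or WT replicate 3 and with no intensity trend. LRP2, the megalin receptor that takes up clusterin, fell by 0.55 ± 0.04 in B3 and rose by 0.75 ± 0.04 in C4. LRP1, an APOE receptor, fell by 0.60 ± 0.05 in B3 and was at 0.04 ± 0.05 in C4, and ABCA1, which loads lipid onto APOE, rose by 0.32 ± 0.03 in B3 and by 0.43 ± 0.03 in C4. Of the cystatins and cathepsins around CST3, 2 of 11 were higher and 7 lower in B3, and 4 higher and 3 lower in C4, where those higher numbered 2 without WT replicate 2 or WT replicate 3, and those higher in B3 numbered 1 with a minimum mean antilog of 50. CTSK fell by 1.15 ± 0.04 in B3 and rose by 0.29 ± 0.04 in C4, and CTSB fell by 0.35 ± 0.03 in B3 and rose by 0.09 ± 0.03 in C4, where the call ended without C4 replicate 3, WT replicate 2 or WT replicate 3 (adjusted p = 0.0503, 0.0553 and 0.0720). Of the SPARC family, 0 of 6 were higher and 3 lower in B3, and 1 higher and 3 lower in C4, where none (0) was higher without C4 replicate 2, C4 replicate 3 or WT replicate 3. SPOCK3 fell by 0.50 ± 0.04 in B3 and was at 0.00 ± 0.04 in C4. Of the small heat shock genes and their regulators, 1 of 7 was higher and 2 lower in B3, and 2 higher and 2 lower in C4. Those lower in B3 numbered 1 without B3 replicate 3 or WT replicate 2, with no intensity trend, and at a common total or median. HSPB8 fell by 0.17 ± 0.05 in B3 and fell by 0.85 ± 0.05 in C4.

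**Figure D5:**
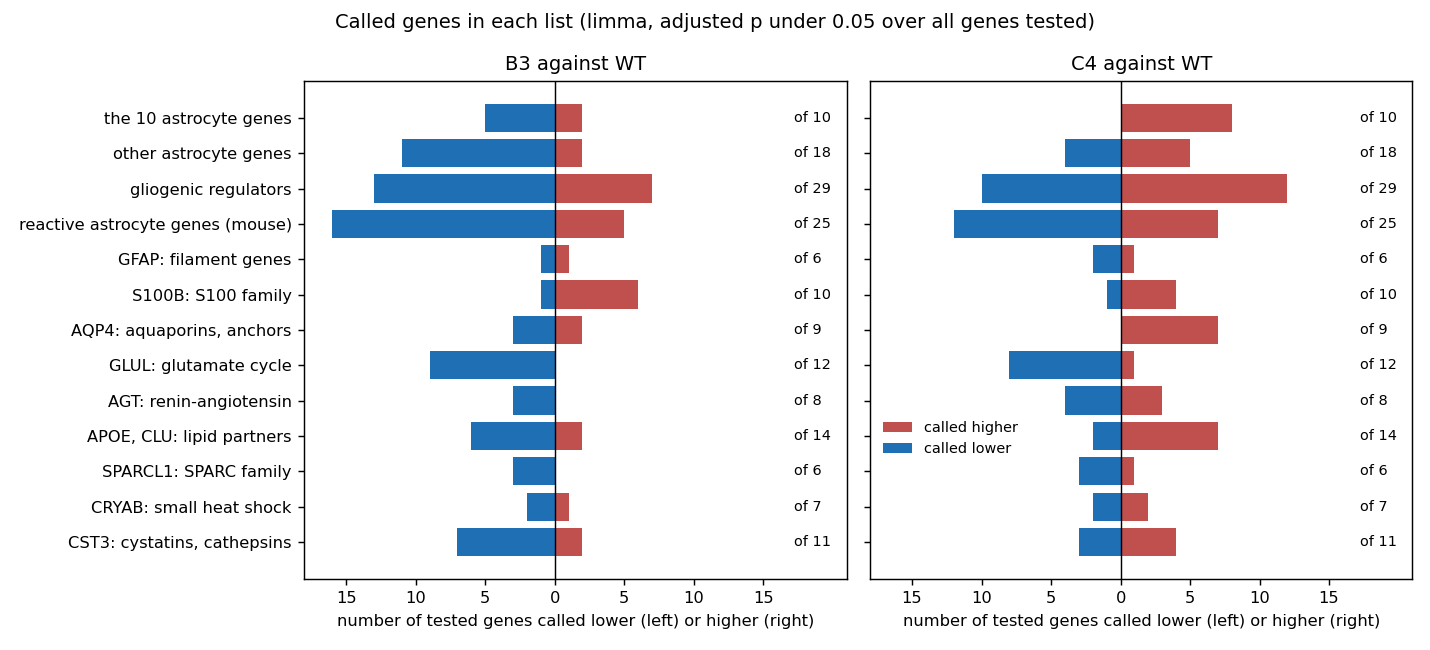
Number of tested genes called lower (bars to the left) and higher (bars to the right) in each list, in B3 against WT (left panel) and C4 against WT (right panel), with the number tested at the edge. The 10 astrocyte genes have 2 higher and 5 lower in B3 and 8 higher in C4, and the glutamate cycle list has 9 lower in B3 and 8 lower in C4. Among all tested genes, 23.2% were called higher and 24.6% lower in B3, and 28.2% and 28% in C4.

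The genes whose values followed each called member most closely over the 9 libraries were found by Pearson's r, as a description of libraries that fall into 3 groups. For AGT they were CHL1, APC and ELF1, each with r = 0.995. For GLUL they were NUDT11 (0.998), PLEKHH1 (0.996) and ELMO1 (0.995), and for APOE CD63 (0.998), TACC1 (0.997) and CNPY2 (0.995). CLU was followed by RAB17 (0.985), RHOU (0.982) and IRF1 (0.982), CST3 by DPP7 (0.994), CTSF (0.992) and TMBIM6 (0.992), and CRYAB by XRN1 (0.980), PHLPP2 (0.963) and KMT2D (0.963). For S100B they were GNG12 (0.994), TALDO1 (0.991) and SLC25A1 (0.988), and for GFAP SDF2 (0.989), MRM1 (0.987) and FANCM (0.976). Between members, r was 0.973 for AGT with GLUL, 0.971 for APOE with GLUL and 0.959 for AGT with APOE, against 0.752 for GFAP with S100B and -0.20 for GFAP with CST3.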

How the data were processed

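RNA of LN229 cells was sequenced in 9 libraries, 3 each of B3, C4 and WT. Per the submitters' processing notes, the authors used STAR 2.7.3a, Subread 1.6.3 and DESeq2 with build hg38; the role and order of the tools are not given in the sources used here. The deposited values are log2, already scaled by the authors. From the values alone they look like a regularized-log transform, since the median SD between replicates was 0.0417 at values of 8 to 12 and 0.00828 under 2, and under such a transform changes of weakly expressed genes are understated.

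Values were used as deposited. The filter kept genes whose mean antilog reached 10, tested in 1 limma fit of all libraries (limma 3.58.1, R 4.3.3), with an intensity trend, two-sided, Benjamini-Hochberg adjustment over 16457 genes and calls under 0.05. The fit was also run on simulated data in which far fewer genes changed, and only in B3, than were called here. That run cannot show how the fit performs on these data. The members and lists were chosen with earlier results of these data known. Named from each list were up to 4 called genes of largest change and mean antilog of at least 50, of which the text gives a part, and per called member the 3 genes of highest r, passing over clone-based and uncharacterised names. SLC1A3 was named besides these, for its order of groups. Positions are from GENCODE 29 (GRCh38), which held 92.6% of tested symbols once. The planned edgeR and DESeq2 fits were not run, because the values are not counts. No label gives a batch. CST4, MT3, HES5 and other listed genes without a row were not analysed here.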

Additional observations from a re-analysis of the deposited data

Results flagged for a closer look

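For 6 of the 10 astrocyte genes the change against WT differed between the lines, by limma's test of C4 against B3. AGT differed by 1.08, CLU by 0.66, APOE by 0.56, CST3 by 0.36, GLUL by 0.25 and CRYAB by 0.21 on the log2 scale, each as the change in C4 minus the change in B3. GFAP and S100B, which rose in both lines, were not among them. Groups of 3 libraries are too small for a test of single libraries that stand apart.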

How the results depend on the processing

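Each change was recomputed under 18 settings (17 for AQP4 and SPARCL1, which a filter of 50 removes). With every library at the same total, the members called lower in B3 numbered 3, against 5; GLUL (-0.04) and AGT (-0.10) lost their calls there. Changes that turned sign were not called in either fit: AQP4 in B3 at the same total (0.0135), SPARCL1 in C4 at the same total (0.0222) and at the same median (0.0198), SPARCL1 in C4 when single libraries were left out (-0.0128 to 0.00023), and GFAP in C4 against B3 when single libraries were left out (-0.059 to 0.0315). S100B in C4 against B3 was called under 6 settings, among them without WT replicate 1 (adjusted p = 0.0140), without WT replicate 2 (0.0380) and without C4 replicate 3 (0.0434), in a range of 0.0140 to 0.216. For the genes of the other lists the same settings were added after seeing the data. Among them, changes that were not called turned sign when single libraries were left out: DTNA in B3 (-0.0406 to 0.0858), HSF1 in B3 (-0.0111 to 0.0254), FABP7 in C4 (-0.037 to 0.0401), LRP1 in C4 (-0.0507 to 0.0963) and SPOCK3 in C4 (-0.0369 to 0.0306). The cause of these shifts was not tested. Leaving out single libraries gave 6 to 7 members called in B3, 7 to 8 in C4 and 6 to 7 between the lines. Deviations of same-numbered libraries from their group means correlated between -0.23 and 0.02, so no shared effect of the replicate number was seen. These correlations cannot show whether same-numbered libraries were prepared together. With the replicate number as a block, the members called were 7 for B3, 8 for C4 and 6 for C4 against B3, as without it, and 7504, 8961 and 9017 genes in all, against 7876, 9244 and 9284. The replicate block changed no call of a member. The small spread at low values limits what can be seen for AQP4 and SPARCL1. GFAP lay at values of 5 to 8, where the median SD between replicates was 0.0452. With the depth unknown, the counting error of AQP4, SPARCL1 and GFAP cannot be given.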
